A study of Mus musculus with 4 samples.

Results

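Tight junctions seal the space between neighbouring epithelial cells, and 9 of their genes were followed through the tracheal epithelium of 2 mice that had received airway stem cells: the claudins Cldn1, Cldn3, Cldn4, Cldn7, Cldn8 and Cldn10, occludin (Ocln), the scaffold protein ZO-1 (Tjp1) and the junctional adhesion molecule JAM-A (F11r). The members were chosen by gene symbol among 30907 deposited features, and each of the 9 symbols matched 1 feature in all 4 libraries. A further 61 junction genes were listed as the wider pathway, and 59 of them were found by symbol.

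Claudins span the membrane and set which ions and solutes pass between cells. Most act as barriers, whereas Cldn10 is known as a channel-forming claudin with isoforms made from separate promoters. Ocln is a membrane protein of the junction strand, Tjp1 ties the strand to actin, and F11r is an adhesion molecule that also occurs on leukocytes. In the trachea, basal cells lie on the basement membrane and give rise to the secretory and ciliated cells that face the airway and carry the apical tight junctions.

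Both recipients were adult wild-type mice given 2% polidocanol, a detergent that strips the airway epithelium, followed by the donor cells 5 hours later. The primary BC recipient carried the strain label C57BL/6, received primary basal cells and was examined at 69 days. The iBC recipient carried the label 129 X1/S1, was given iBCs, which are basal cells derived from embryonic stem cells, and its trachea was taken at 192 days. Each trachea was digested and sorted within a Calcein Blue+ gate into a GFP+ library, here called donor-derived, and a GFP- library, here called endogenous. Each of the 4 groups is therefore 1 library from 1 animal, each recipient gives a single pair of libraries with no replicate, no test was made, and every interval given is an exact 95% interval that covers counting error only. Between the recipients, donor cell kind, strain, day and animal cannot be told apart; the uninjured control trachea that the protocol mentions was not analysed here. EGFP, the donor label, stood at 65.4 and 612 CPM (UMIs of a gene per 1000000 UMIs of all genes) among GFP+ cells of the iBC and the primary BC recipient, and at 0.0962 and 8.04 CPM among their GFP- cells.

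Levels were summed over cells of a class and expressed in CPM of the class sum. The 4 libraries held 21504563 to 26625123 UMIs, and 6542 of 6784 barcodes were kept. Cells were placed by their markers into basal-gated (496 to 894 cells a library; Krt5, Trp63 and others), secretory-gated (224 to 483; Scgb1a1, Muc5b and others) and ciliated-gated cells (168 to 368; Foxj1, Ccdc153 and others), whose 10 leading genes held 3 to 6 of their own markers in each library, and into cells that carried both the basal and the secretory marker sets (100 to 370). The last class is a range of marker content rather than a cell type. In both libraries of the iBC recipient its 10 leading genes held the hillock marker Krt4. The basal, secretory and ciliated gates use the marker sets themselves, so finding those markers among the leading genes is no independent check of the classes. Secretory markers alone took 30.9% to 43.2% of the UMIs of secretory-gated cells but at most 3.41% of those of basal- and ciliated-gated cells, so the CPM of every other gene is pressed down in secretory-gated cells. Pairs of libraries shared 0 or 1 cell barcode.

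The promoters of the genes on which the results turn are shown first, from the RefSeq table for GRCm38.p6 (250 bases before to 50 bases after a gene's start; 8 of the 9 genes matched, with 11 entries). Capitals mark matches, on either strand, to the motifs searched: GGGCGG, the GC box; TGANTCA, the AP-1 motif; TATAAA, the TATA box; and AACCNGTT, the Grainyhead-like motif. Of all 32851 promoters of this length, 35.7% held GGGCGG, 7.81% TGANTCA, 13.6% TATAAA and 2.09% AACCNGTT. Both starts of Cldn10 are given because its level differed between libraries in both recipients and UMI counts per gene cannot say which start was used. The upstream one lies at chr14:118787621-118787920 (+), has a GC content of 36.0% and holds none of the 4 motifs; the downstream one lies at chr14:118854700-118854999 (+), has a GC content of 72.0% and holds 3 GC boxes.
Cldn10 upstream start: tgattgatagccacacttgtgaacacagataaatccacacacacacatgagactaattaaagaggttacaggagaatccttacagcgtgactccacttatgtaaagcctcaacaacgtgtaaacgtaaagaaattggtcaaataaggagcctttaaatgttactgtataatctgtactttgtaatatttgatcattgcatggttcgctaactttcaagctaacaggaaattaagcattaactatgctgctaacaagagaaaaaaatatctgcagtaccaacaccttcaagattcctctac
Cldn10 downstream start: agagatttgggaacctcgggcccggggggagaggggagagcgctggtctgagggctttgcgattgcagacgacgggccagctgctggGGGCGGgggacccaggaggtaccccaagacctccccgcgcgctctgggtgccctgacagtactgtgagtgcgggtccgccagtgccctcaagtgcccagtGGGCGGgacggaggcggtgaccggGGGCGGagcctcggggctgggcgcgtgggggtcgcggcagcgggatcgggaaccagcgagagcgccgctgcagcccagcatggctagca

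Cldn3 and Cldn4 are shown as neighbours, 39.3 kb apart on chromosome 5 and transcribed away from each other. The Cldn4 window, chr5:134946885-134947184 (-), held TGANTCA 2 times and GGGCGG 2 times. The Cldn3 window, chr5:134985964-134986263 (+), held 1 GGGCGG and no TGANTCA.
Cldn4: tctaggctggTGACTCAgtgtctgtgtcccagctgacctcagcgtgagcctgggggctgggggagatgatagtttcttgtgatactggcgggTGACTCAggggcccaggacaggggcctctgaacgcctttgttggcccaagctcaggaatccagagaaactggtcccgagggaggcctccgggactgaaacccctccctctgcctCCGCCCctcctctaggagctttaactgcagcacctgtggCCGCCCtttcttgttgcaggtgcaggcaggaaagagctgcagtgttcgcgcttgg
Cldn3: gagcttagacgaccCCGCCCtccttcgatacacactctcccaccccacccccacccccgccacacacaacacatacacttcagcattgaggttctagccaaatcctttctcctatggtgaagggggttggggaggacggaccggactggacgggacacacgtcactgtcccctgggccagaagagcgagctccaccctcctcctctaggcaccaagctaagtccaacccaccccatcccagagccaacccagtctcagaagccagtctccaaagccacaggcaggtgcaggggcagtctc

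The claudins divided the epithelium between them. Cldn3 and Cldn7 were low in basal-gated cells and high in secretory- and ciliated-gated cells, Cldn8 was spread over all 4 classes, Cldn10 was nearly absent from ciliated-gated cells, and Cldn1 was close to 0 throughout the epithelium. Ocln was highest in ciliated-gated cells, whereas Tjp1 and F11r were present in every class. The plot of CPM by class and library shows these patterns for all 9 genes.

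**Figure D1:**
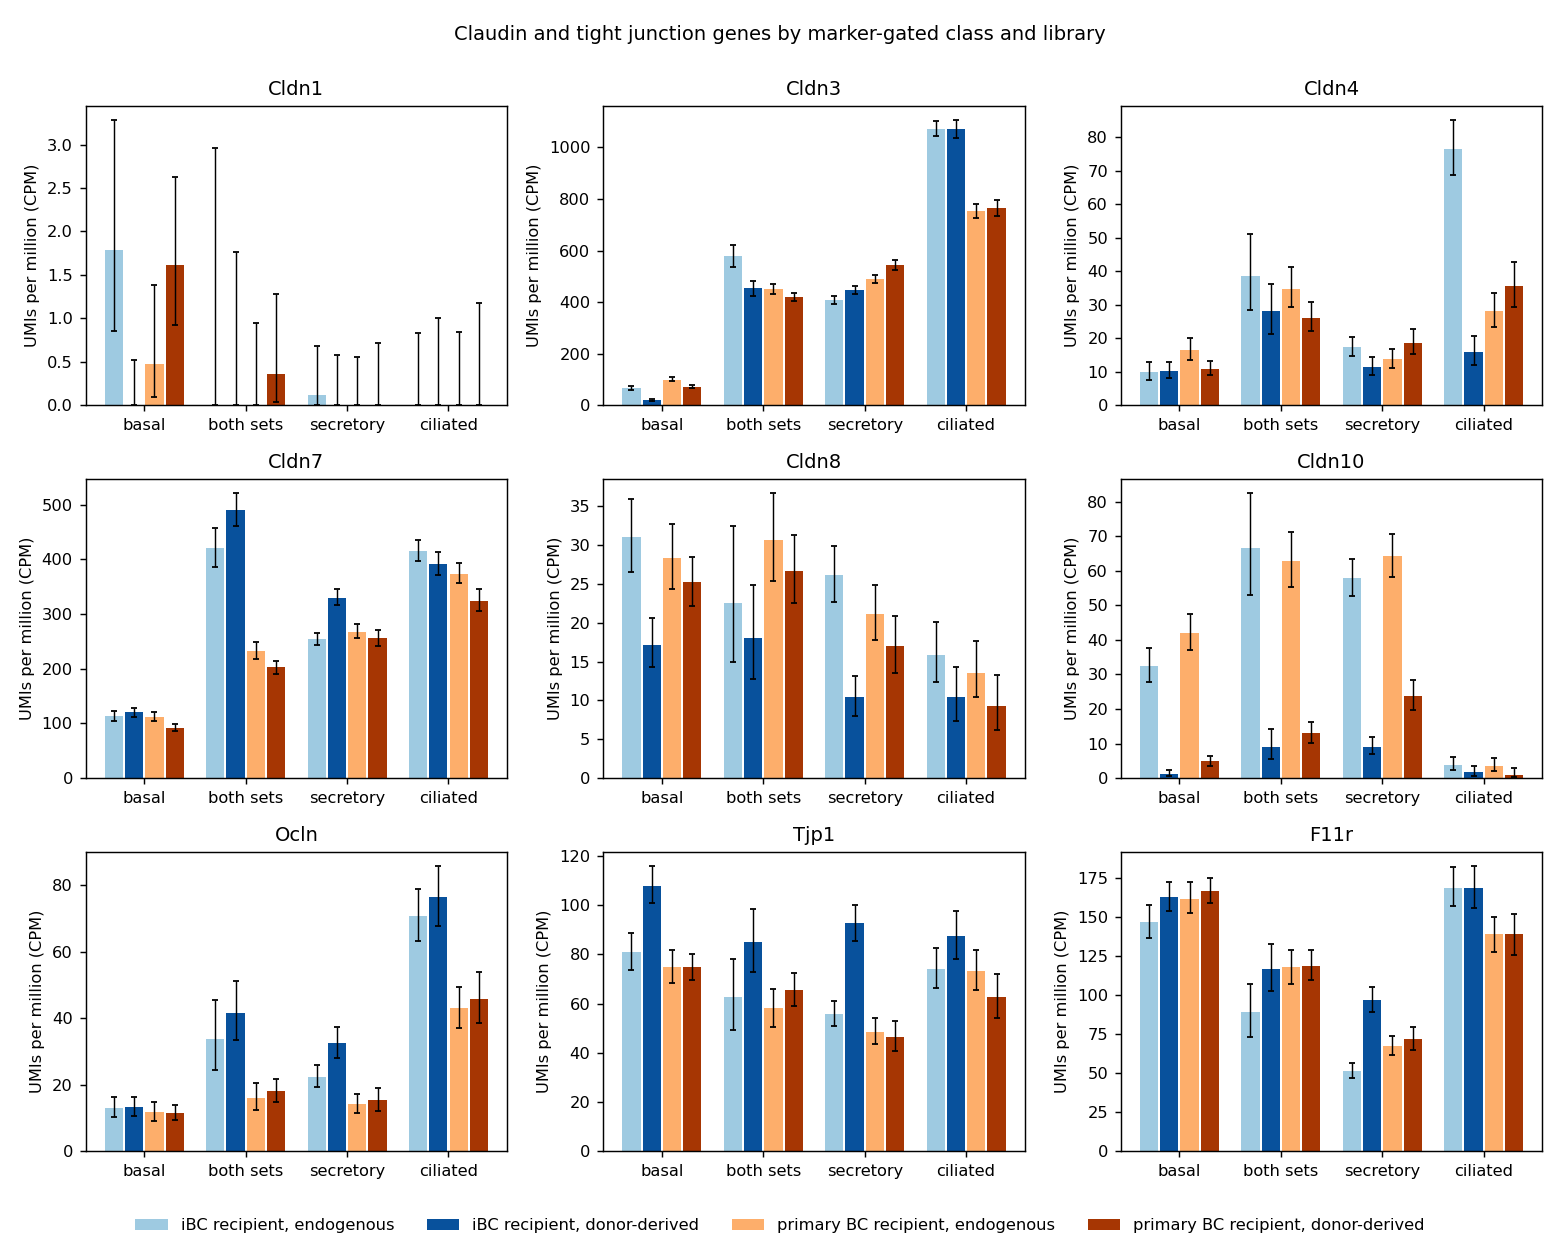
CPM (linear axis from 0, scaled separately for each gene) of the 9 genes in 4 marker-gated classes; "both sets" stands for cells with basal and secretory markers. Bars are single libraries and error bars are exact Poisson 95% intervals; Cldn10 bars of the donor-derived libraries are below the endogenous ones in the first 3 classes, and Cldn4 in ciliated-gated cells ranges from 15.9 to 76.5 CPM.

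Cldn3, a barrier claudin (chr5:134986214-134987472, +), ranged widely between classes. In basal-gated cells it stood at 67.0 CPM (endogenous) and 19.8 CPM (donor-derived) in the iBC recipient, and at 100 and 72.7 CPM in the primary BC recipient. In ciliated-gated cells it stood at 1073 and 1071 CPM in the iBC recipient and at 753 and 763 CPM in the primary BC recipient. Secretory-gated cells lay between, at 408, 447, 489 and 544 CPM in the same order of libraries. The ciliated-gated level was thus 7.53 to 54.1 times the basal-gated level, and intervals of those classes did not overlap in any library. By CPM ciliated-gated cells held the most Cldn3 in all 4 libraries, but TMM scaling put secretory-gated cells first in both libraries of the primary BC recipient.

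Cldn7, a claudin found along the lateral membrane as well as at the junction (chr11:69964779-69967885, +), followed the same course less steeply. Basal-gated cells held 113, 120, 112 and 92.4 CPM, in the order iBC recipient endogenous, iBC donor-derived, primary endogenous and primary donor-derived, which is used from here on. Ciliated-gated cells held 416, 392, 374 and 324 CPM, which is 3.28 to 3.67 times as much. Secretory-gated cells held 255, 330, 268 and 256 CPM. Whether ciliated- or secretory-gated cells held the most Cldn7 depended on the scaling: with the secretory markers left out of the totals, the secretory-gated level was above the ciliated-gated one in all 4 libraries. Cells with both marker sets held 420, 490, 233 and 203 CPM, the highest of the 4 classes in both iBC libraries, though in the endogenous one their interval overlapped that of ciliated-gated cells.

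Cldn4 (chr5:134945119-134946934, -), a barrier claudin that changes readily with injury and stress, varied between libraries. Basal-gated cells held 10.0, 10.3, 16.5 and 10.9 CPM and secretory-gated cells 17.4, 11.5, 13.7 and 18.7 CPM. Ciliated-gated cells held 76.5, 15.9, 28.2 and 35.6 CPM, so the endogenous library of the iBC recipient was the highest and its donor-derived library the lowest. In that lowest library the place of ciliated-gated cells above secretory-gated cells was not kept with TMM scaling. In the few hillock-gated cells (10, 13, 33 and 89 cells) Cldn4 reached 64.8, 371, 93.9 and 77.6 CPM, but in the iBC recipient each value rested mostly on 1 cell. These cells gave 5 of 7 endogenous and 66 of 79 donor-derived UMIs, and the levels without them were 20.9 and 69.5 CPM.

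Cldn8 (chr16:88560828-88563183, -), a barrier claudin of distal tubule and other tight epithelia, was low everywhere. Its levels were 31.1, 17.2, 28.3 and 25.2 CPM in basal-gated, 26.1, 10.4, 21.1 and 17.0 CPM in secretory-gated and 15.9, 10.4, 13.6 and 9.29 CPM in ciliated-gated cells. The ciliated-gated level was below the basal-gated one in each library, at 0.369 to 0.605 of it, and at 0.357 to 0.584 with TMM scaling. The order of basal- and secretory-gated cells was not stable, because leaving secretory markers out of the totals turned the secretory-gated level from 0.841 and 0.747 of the basal-gated one to 1.46 and 1.09 in the endogenous libraries.

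Ocln (chr13:100496507-100552718, -) rose from 12.9, 13.1, 11.6 and 11.4 CPM in basal-gated to 70.7, 76.3, 43.0 and 45.8 CPM in ciliated-gated cells, a difference of 3.71 to 5.82 times, and of 3.53 to 5.62 times with TMM scaling. Both libraries of the iBC recipient lay above both of the primary BC recipient in ciliated-gated cells, with intervals that did not overlap. Cells with both marker sets (33.7, 41.5, 16 and 18.0 CPM) and secretory-gated cells (22.3, 32.4, 14.2 and 15.3 CPM) were ordered the same way by recipient.

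Tjp1 (chr7:65296165-65527781, -) was present in every class. It stood at 81.1, 108, 74.8 and 74.7 CPM in basal-gated, 55.8, 92.7, 48.5 and 46.5 CPM in secretory-gated and 74.2, 87.6, 73.2 and 62.5 CPM in ciliated-gated cells. The donor-derived iBC library was the highest in each of these classes, though its interval in ciliated-gated cells overlapped that of the endogenous one. Its secretory-gated level relative to basal-gated cells depended on the scaling, at 0.623 to 0.857 by CPM and 0.970 to 1.29 with TMM. F11r (chr1:171437535-171464603, +) stood at 147, 163, 162 and 167 CPM in basal-gated and at 169, 169, 139 and 139 CPM in ciliated-gated cells. Its level in secretory-gated cells was lower, at 51.5, 96.8, 67.5 and 72.2 CPM, 0.350 to 0.594 of the basal-gated level by CPM and 0.628 to 0.895 of it with TMM scaling. F11r was also present in immune-gated cells, at 93.4 CPM in the endogenous iBC library (25 cells) and 157 CPM in the endogenous primary library (68 cells).

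Cldn10 (ENSMUSG00000022132, chr14:118787908-118875489, +) was the member that set donor-derived apart from endogenous cells in both recipients. In basal-gated cells the iBC recipient had 32.5 CPM in endogenous and 1.14 CPM in donor-derived cells, and the primary BC recipient 42.1 and 4.85 CPM. Cells with both marker sets held 66.6 and 9.07 CPM in the iBC recipient and 62.9 and 13 CPM in the primary BC recipient. Secretory-gated cells held 57.9 and 9.13 CPM, and 64.2 and 23.7 CPM. In all 3 classes both endogenous libraries lay above both donor-derived libraries, and no interval of the first overlapped one of the second.

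The ciliated-gated level of Cldn10 was 3.81, 1.65, 3.64 and 0.961 CPM, from 3 to 17 UMIs a library and under the 20 CPM asked of a comparison. Among cells that share a level of secretory markers the difference was present as well. With cells of the basal, secretory and combined classes binned by secretory-marker UMIs per 10000, and those markers left out of the totals, the endogenous Cldn10 level was 5.05 to 24.6 times the donor-derived one over 6 bins in the iBC recipient and 3.02 to 11.8 times in the primary one. Bins of the donor-derived iBC library between 100 and 1000 held only 25 to 40 cells, with 1 to 3 Cldn10 UMIs each. Its poorest bin, behind the 24.6 times, held 4 Cldn10 UMIs in 539 cells. Within each library Cldn10 was higher in the bin richest in secretory markers than in the poorest: 99.9 against 16.1 CPM, 19.8 against 0.655, 98.2 against 16.1, and 29.8 against 3.58.

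**Figure D2:**
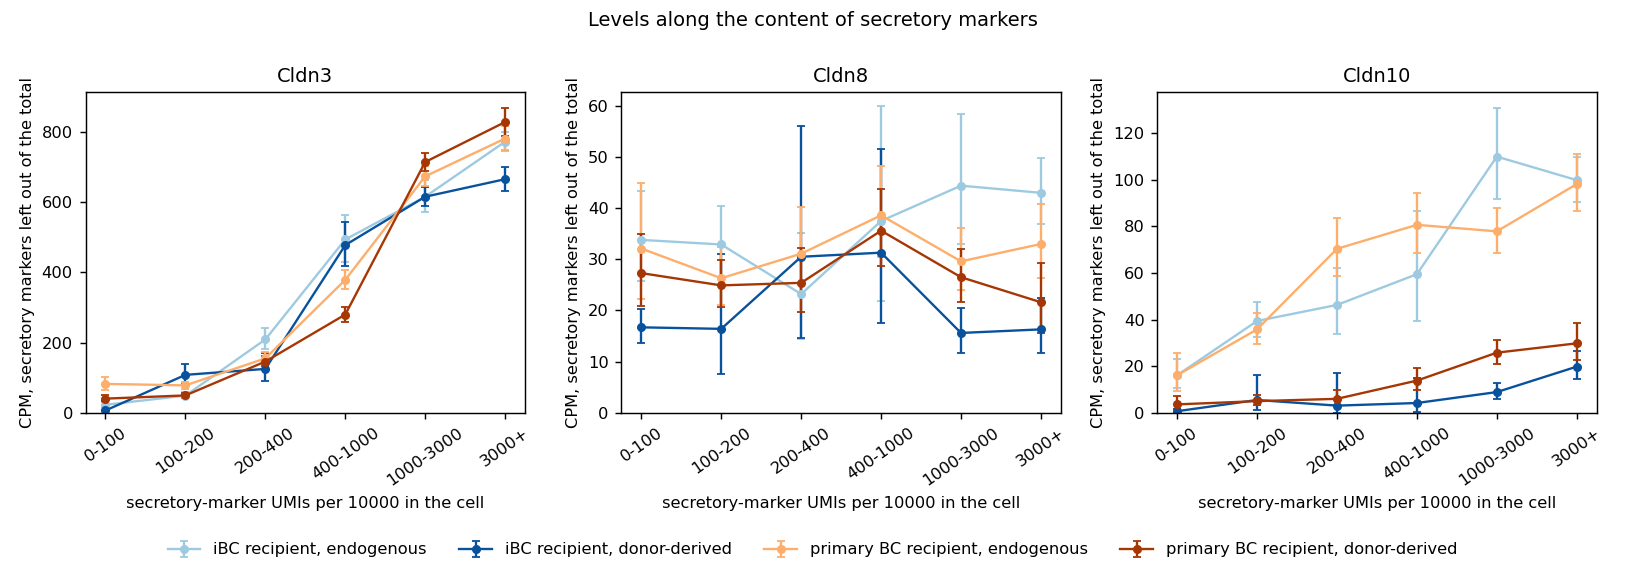
CPM of Cldn3, Cldn8 and Cldn10 with the secretory markers left out of the total (linear axis), against the secretory-marker UMIs per 10000 of a cell, in 6 bins. Points are single libraries with exact Poisson 95% intervals. The Cldn3 lines span 6.39 to 82.2 CPM in the poorest bin and 666 to 829 CPM in the richest. In the second bin the donor-derived iBC line lies above its endogenous line. The endogenous Cldn10 lines lie above the donor-derived ones in all 6 bins.

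Cldn3 in the same bins went from 22.7 to 773, from 6.39 to 666, from 82.2 to 782 and from 40.2 to 829 CPM between the bins poorest and richest in secretory markers. At 1000 to 3000 secretory-marker UMIs per 10000, the libraries of the iBC recipient were at 616 and 616 CPM and those of the primary BC recipient at 674 and 715 CPM. The libraries were farther apart in the poorest bin, where endogenous cells held 3.55 times (iBC recipient) and 2.04 times (primary BC recipient) the Cldn3 level of donor-derived cells. In the next bin, from 100 to 200, the iBC recipient had the opposite order, at 48.8 CPM in 358 endogenous and 108 CPM in 40 donor-derived cells. Basal-gated cells of the donor-derived iBC library carried fewer secretory-marker UMIs (median 35.6 per 10000) than those of the other libraries (121, 149 and 144), and its part in the Cldn3 difference in basal-gated cells was not tested beyond these bins.

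In the primary BC recipient the 2 libraries also shared Leiden clusters made without the 9 members, which gave a second view of Cldn10. In cluster 0, basal-like and led by Dlk2 and Trp63, it stood at 16.1 CPM (174 endogenous cells) and 4.38 CPM (683 donor-derived cells), 3.69 times lower in the donor-derived cells (interval 2.23 to 6.13). In cluster 1, led by Fmo6 and Hey1, it stood at 82.8 and 11.6 CPM, 7.11 times lower (5.47 to 9.36), and in cluster 2, secretory-like, at 56.2 and 19.5 CPM, 2.88 times lower (2.35 to 3.54). Cluster 10, led by Abi3bp and Apoc1, held 62.7 CPM in 247 endogenous and 32.4 CPM in 36 donor-derived cells, 1.93 times lower (1.10 to 3.70). Cluster 12, hillock-like, held 27.2 and 4.19 CPM, 6.48 times lower (2.88 to 17.1). The direction was thus the same in these 5 clusters, with sizes from 1.93 to 7.11 times.

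The make-up of the basal gate differed between those libraries. Cluster 10 held 42.9% of endogenous and 3.24% of donor-derived basal-gated cells, and cluster 0 held 33.7% and 71.8%. The basal-gated difference of 8.67 times therefore combines the difference within clusters with these shares. With basal cells taken from named clusters in place of the gate it was 3.55 times, and both libraries then lay under the 20 CPM required for a call. Cluster 16 was tuft-like and led by Lrmp, Stap1 and the ionocyte marker Ascl3. Cldn10 stood there at 123 CPM in 21 endogenous and at 146 CPM in 16 donor-derived cells. The ratio of donor-derived to endogenous cells was 1.19 (interval 0.673 to 2.08). That interval includes 1 and overlaps the one of cluster 10 (0.270 to 0.907).

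As a share of cells, Cldn10 was seen in 17.8%, 1.16%, 27.6% and 4.03% of basal-gated and in 49.3%, 11.4%, 60.6% and 30.4% of secretory-gated cells. With each cell thinned to 3000 UMIs these shares were 9.0%, 0.331%, 10.3% and 0.783% in basal-gated and 15.8%, 2.79%, 19.3% and 4.02% in secretory-gated cells; 6 cells of the endogenous iBC library were shallower and were left out. Ciliated-gated cells, in which Cldn10 was nearly absent, gave thinned shares of 0.815%, 0.743%, 0.481% and 0% (upper bound 2.17%). The basal-gated share of the donor-derived iBC library (interval 0.0401% to 1.19%) was at or below that of its own ciliated-gated cells and is read as background. Median depths were 7744 to 11770 UMIs in basal-gated, 16822 to 25482 in secretory-gated and 11894 to 19339 in ciliated-gated cells.

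Endogenous basal-gated cells with a Cldn10 UMI held less Krt14, a keratin that is among the basal gate markers, than those without, a gene chosen after its values were seen. In the endogenous iBC library Krt14 stood at 130 CPM in the 125 cells with and 458 CPM in the 577 cells without a Cldn10 UMI, and in the endogenous primary library at 32.7 CPM in 137 and 324 CPM in 359 cells. Krt5 was 1.40 and 1.54 times lower in the cells with Cldn10, and Krt15 1.17 and 1.06 times lower. Trp63, the basal lineage factor, differed by 1.09 and 1.19 times between the same cells. Median depths were 8164 and 7662 UMIs in the first library and 12116 and 11557 in the second. The donor-derived libraries had 7 and 36 cells with a Cldn10 UMI, and Krt14 was 1.90 and 2.19 times lower in them than in the cells without.

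Donor-derived and endogenous cells of the iBC recipient were compared across all measured genes, those with at least 20 CPM in either library; a gene was called when its CPM ratio was at least 1.5-fold with an interval excluding 1. In basal-gated cells 3 of 6 measured members were lower in donor-derived cells, Cldn3, Cldn8 and Cldn10, against 17.0% of all genes called either way. In cells with both marker sets Cldn10 alone of 8 was called (20.3% of all genes). In secretory-gated cells Cldn8 and Cldn10 were lower and Tjp1 and F11r higher, 4 of 7 (34.5% of all genes), and in ciliated-gated cells Cldn4 alone of 6 was called (19.8% of all genes). Each member called lower reached 20 CPM in the endogenous library alone. In basal-gated cells Cldn3, Cldn8 and Cldn10 stood at 67.0, 31.1 and 32.5 CPM there, against 19.8, 17.2 and 1.14 CPM. These counts therefore depend in part on that limit. The members' median log2 ratios were -0.31, -0.01, 0.37 and 0.00 in these classes, beside 0.14, 0.07, 0.35 and 0.09 over all measured genes. Basal-gated cells of the 2 libraries lay in different clusters: endogenous ones in clusters 4 (59.8%) and 7 (36.9%), both basal-like, and donor-derived ones in cluster 3 (68.4%), basal-like, 13 (17.4%), hillock-like, and 15 (10.1%), unnamed.

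Among the called members Cldn10 had the largest difference in each of the first 3 classes. It was 28.5 times lower in basal-gated cells (interval 14.2 to 67.0), 7.34 times lower in cells with both marker sets (4.42 to 12.8) and 6.34 times lower in secretory-gated cells (4.82 to 8.48). The counting base of the 28.5 is thin: 8 UMIs in 7 donor-derived cells, a level read above as background. Counted from the lowest log2 ratio Cldn10 ranked 45 of 6521, 68 of 5854 and 63 of 5053 measured genes. Cldn3 was 3.38 times lower in basal-gated cells (2.78 to 4.14), and 7.78 times lower with basal cells taken from named clusters, where Cldn7 was called lower as well (1.66 times). Cldn8 was 1.80 times lower in basal-gated (1.42 to 2.29) and 2.51 times lower in secretory-gated cells (1.90 to 3.37). Cldn4 was 4.80 times lower in ciliated-gated cells (3.63 to 6.46).

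Tjp1 and F11r in secretory-gated cells were 1.66-fold (1.47 to 1.88) and 1.88-fold (1.66 to 2.13) higher in donor-derived cells. This was the class in which the median of all genes moved most. With TMM scaling that median was 0.01, the ratios were 1.29 and 1.46, and neither gene was called. Cldn3, Cldn7, Ocln, Tjp1 and F11r in ciliated-gated cells had ratios of 0.999 (0.957 to 1.04), 0.942 (0.878 to 1.01), 1.08 (0.916 to 1.27), 1.18 (1.01 to 1.38) and 0.998 (0.896 to 1.11), all short of 1.5-fold.

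**Figure D3:**
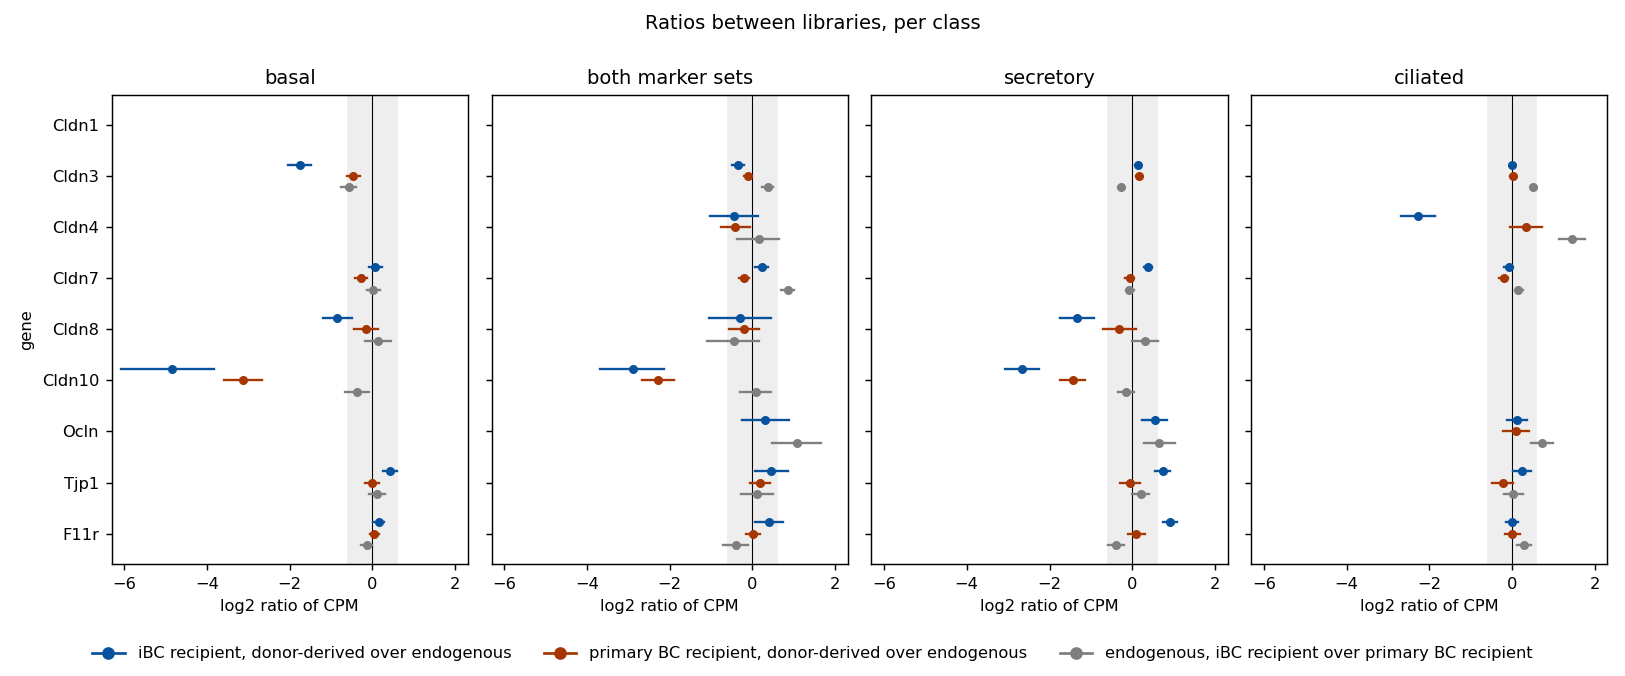
log2 ratio of CPM without pseudocount, with exact 95% intervals, for each gene measured at 20 CPM or more in a class; the grey band spans 1.5-fold either way. Most points lie in the band; Cldn10 lies left of it in both donor-derived comparisons (28.5 and 8.67 times lower in basal-gated cells) and inside it between the endogenous libraries.

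In the primary BC recipient Cldn10 was the member that passed the 1.5-fold limit. It was lower in donor-derived cells by 8.67 times in basal-gated cells (interval 6.35 to 12; 1 of 6 members called, 2.52% of all genes), by 4.84 times in cells with both marker sets (3.71 to 6.38; 1 of 7, 1.89%) and by 2.70 times in secretory-gated cells (2.21 to 3.33; 1 of 6, 3.27%). Among measured genes it ranked 8 of 6321, 7 of 5865 and 7 of 4834 from the lowest log2 ratio. In basal-gated cells and cells with both marker sets it reached 20 CPM in the endogenous library alone. In ciliated-gated cells 0 of 6 measured members were called (3.07% of all genes). The members' median log2 ratios were -0.20, -0.17, -0.07 and 0.01, beside 0.03, 0.00, 0.03 and -0.03 over all genes.

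The other measured members lay within 1.5-fold of the endogenous level in that animal. Cldn3 had ratios of 0.727 (0.652 to 0.810) in basal-gated and 1.11 (1.06 to 1.17) in secretory-gated cells; within the shared cluster 0 it stood at 76.2 CPM in endogenous and 38.7 CPM in donor-derived cells, 1.97 times lower (1.62 to 2.39), and it was called with basal cells taken from named clusters (1.95 times). Cldn8 had ratios of 0.891 (0.732 to 1.09) and 0.805 (0.609 to 1.06) in basal- and secretory-gated cells. Tjp1 and F11r lay between 0.854 and 1.13 in all 4 classes.

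The endogenous cells of both recipients, compared with each other, differed by less than 1.5-fold in Cldn10. The ratio of the iBC recipient to the primary BC recipient was 0.773 (0.636 to 0.937) in basal-gated cells, 1.06 (0.815 to 1.36) in cells with both marker sets and 0.901 (0.789 to 1.03) in secretory-gated cells. With basal cells taken from named clusters the first of these became 2.97, as cluster 10 of the primary BC recipient has no name and drops out, and Cldn3, Cldn7 and Cldn8 then stood 1.71, 1.56 and 1.56-fold higher in the iBC recipient and were called. In basal-gated cells 0 of 6 measured members were called, against 11.1% of all genes.

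Ocln was called between the endogenous libraries in 3 classes. It was 2.11-fold (1.39 to 3.17) higher in the iBC recipient in cells with both marker sets, 1.57-fold (1.22 to 2.04) in secretory-gated and 1.64-fold (1.37 to 1.98) in ciliated-gated cells. In the first 2 of these classes Ocln reached 20 CPM in the iBC recipient alone. Cldn7 was 1.80-fold (1.61 to 2.01) higher in cells with both marker sets, which made 2 of 8 members called there (19.4% of all genes). Ocln was the sole member of 7 called in secretory-gated cells (20.6% of all genes). Cldn4 was 2.71-fold (2.20 to 3.36) higher in ciliated-gated cells, which made 2 of 6 there (18.1% of all genes). All-gene medians were -0.04, -0.13, -0.22 and -0.04 in the 4 classes, and strain, day, donor cell kind and animal cannot be told apart in this comparison.

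Cldn1, a barrier claudin best known from skin (ENSMUSG00000022512, chr16:26356642-26371841, -), was scarcely seen in the epithelium. Basal-gated cells held 10, 0, 3 and 16 UMIs, or 1.79, 0, 0.476 and 1.62 CPM, and ciliated-gated cells held none in any library. In basal-gated cells of the donor-derived iBC library 3 counts would have been 0.427 CPM, and the whole of that library held 0 Cldn1 UMIs. No fold is given, as every epithelial class lay under 20 CPM.

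Its UMIs lay mostly in immune-gated cells of the endogenous libraries. There Cldn1 stood at 127 CPM (34 UMIs, 25 cells) in the iBC recipient and at 55.9 CPM (48 UMIs, 68 cells) in the primary BC recipient, and these cells held 72.3% and 82.8% of all Cldn1 UMIs of their libraries. The donor-derived libraries had 0 and 2 immune-gated cells. A Cldn1 UMI was seen in 8 of 25 and 13 of 68 immune-gated cells, with at most 10 in any cell.

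Other genes were compared between immune-gated cells with and without Cldn1, and were chosen after their values were seen. Itgae, the integrin CD103, was seen in 7 of 8 and 11 of 13 of them, but in 2 of 17 and 0 of 55 of those without Cldn1. Epcam, an epithelial adhesion gene, was seen in 8 of 8 and 11 of 13 against 7 of 17 and 4 of 55. H2-Ab1, an MHC class II gene, was seen in nearly all immune-gated cells, in 8 of 8 and 13 of 13 with Cldn1 and in 14 of 17 and 55 of 55 without. C1qb, a complement gene of macrophages, was seen in 0 of 8 and 0 of 13 cells with Cldn1, and in 1 of 17 and 50 of 55 without, so it separated the cells in the primary BC recipient only. Cldn3, Cldn7 and Ocln, which mark epithelial cells here, were seen in 1, 1 and 1 of the 8 cells and in 2, 2 and 0 of the 13 cells. Cells with Cldn1 were deeper than those without (medians of 16392 against 6564 and 16270 against 10194 UMIs), and the part of depth in these shares was not tested.

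**Figure D4:**
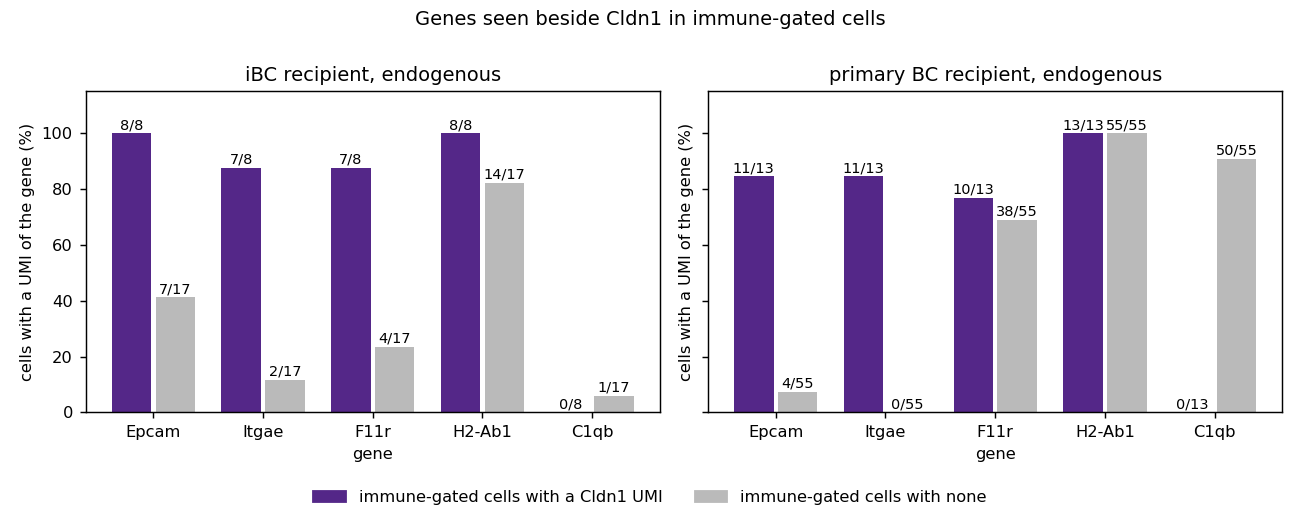
Share of immune-gated cells (percent, with counts above the bars) that held a UMI of each gene, split by whether the cell held a Cldn1 UMI, in the 2 endogenous libraries. Itgae was seen in 7 of 8 and 11 of 13 cells with Cldn1 and in 2 of 17 and 0 of 55 without; C1qb was seen in none of the cells with Cldn1.

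The wider list of 59 junction genes had more calls in the iBC recipient than in the primary one, as had all genes. In the iBC recipient 9 were higher and 1 lower in donor-derived basal-gated cells of 31 measured, 9 and 5 of 38 in cells with both marker sets, 12 and 2 of 37 in secretory-gated and 3 and 4 of 35 in ciliated-gated cells, which is 32.3%, 36.8%, 37.8% and 20% of those measured, beside 17.0%, 20.3%, 34.5% and 19.8% of all genes. The last 2 shares were near those of all genes. Some listed genes reached 20 CPM in 1 of the compared libraries alone. Jam2 did so in donor-derived basal-gated cells (44.7 CPM, against 0.536 CPM in endogenous ones). Cldn22 did so in endogenous secretory-gated cells (23.2 CPM, against 0.315 CPM in donor-derived ones). The counts and shares of the list therefore depend in part on that limit. The list's median log2 ratios were 0.21, 0.26, 0.39 and -0.15, beside the all-gene medians given above. In the primary BC recipient 0 of 28 and 0 of 29 were called in basal-gated cells and cells with both marker sets, 3 of 30 in secretory-gated and 1 of 30 in ciliated-gated cells, beside 2.52%, 1.89%, 3.27% and 3.07% of all genes. Among these were Cldn22 (1.71 times lower) and Cgnl1 (1.5-fold higher) in secretory-gated and Pard6a (1.54 times lower) in ciliated-gated cells.

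Jam2, a junctional adhesion molecule of the same family as F11r, was called in every class of the iBC recipient. In the order of libraries used above it stood at 0.536, 44.7, 0.635 and 0.708 CPM in basal-gated cells, at 2.41, 58.3, 0 and 0.356 CPM in cells with both marker sets, at 3.19, 64.2, 0.754 and 0.772 CPM in secretory-gated and at 12.6, 67.0, 5.23 and 3.20 CPM in ciliated-gated cells. The donor-derived iBC library stood above the other 3 in each class with no overlap of intervals. It was 20.1-fold (13.5 to 31.2) above the endogenous library in secretory-gated and 5.33-fold (3.97 to 7.26) in ciliated-gated cells.

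Cldn18, a claudin of lung alveoli and stomach, stood at 43.9 CPM (279 UMIs) in secretory-gated, 13.4 CPM in cells with both marker sets and 9.40 CPM in basal-gated cells of the donor-derived iBC library, and was at 0 UMIs in all 4 classes of the other 3 libraries. The secretory-gated level was 119-fold that of 3 counts over the class sum in the endogenous library of the same animal (0.368 CPM). The exact upper bound for the 0 UMIs there was higher, at 0.452 CPM. The alveolar markers Sftpc, Sftpb, Lamp3, Ager and Hopx summed to 583 CPM in donor-derived secretory-gated cells of that animal (none at 0, Sftpc 83.4 and Ager 93.5 CPM). The sum was 182 CPM in its endogenous ones (Sftpc 0 and Ager 0.245 CPM) and 57.9 and 85.7 CPM in the primary BC recipient. Sftpb and Hopx gave 235 and 169 CPM of the first sum and 138 and 44.3 CPM of the second. Donor-derived iBC sums were also higher in basal-gated cells (359 against 110 CPM) and cells with both marker sets (445 against 236 CPM). In ciliated-gated cells the order of the sums was reversed (376 against 483 CPM), and Hopx gave 328 and 470 CPM of them. Sftpc (12.9 against 4.71 CPM), Sftpb (23.9 against 6.50 CPM) and Ager (10.7 against 1.35 CPM) were higher in the donor-derived cells there. Lamp3 was at 0 against 0.224 CPM. Ciliated-gated cells of the primary BC recipient held 493 and 508 CPM without a Cldn18 UMI, of which Hopx gave 414 and 452 CPM and Sftpc 78.6 and 54.5 CPM. The part of these markers in the Cldn18 result was not tested.

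Cldn22 was lowest in that library in secretory-gated cells, at 23.2, 0.315, 87.4 and 51.2 CPM. The counting base is thin, as 2 UMIs lay behind the level in donor-derived iBC cells, 73.6 times below the endogenous level (20.1 to 612). Nectin3, an adhesion molecule of the neighbouring adherens junction, was higher in the iBC recipient: 43.7, 73.2, 5.71 and 1.62 CPM in basal-gated cells, 7.66-fold (5.38 to 11.2) between the endogenous libraries. Cgnl1, the scaffold paracingulin, stood at 33.7, 31.0, 4.89 and 4.98 CPM in cells with both marker sets. Elf3, an epithelial transcription factor, was lower in donor-derived iBC cells by 2.24 times in basal-gated (1.86 to 2.71) and 2.00 times in ciliated-gated cells (1.81 to 2.22). Ildr1, a protein of tricellular junctions, was lower there by 1.84 times in ciliated-gated cells (1.54 to 2.20).

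**Figure D5:**
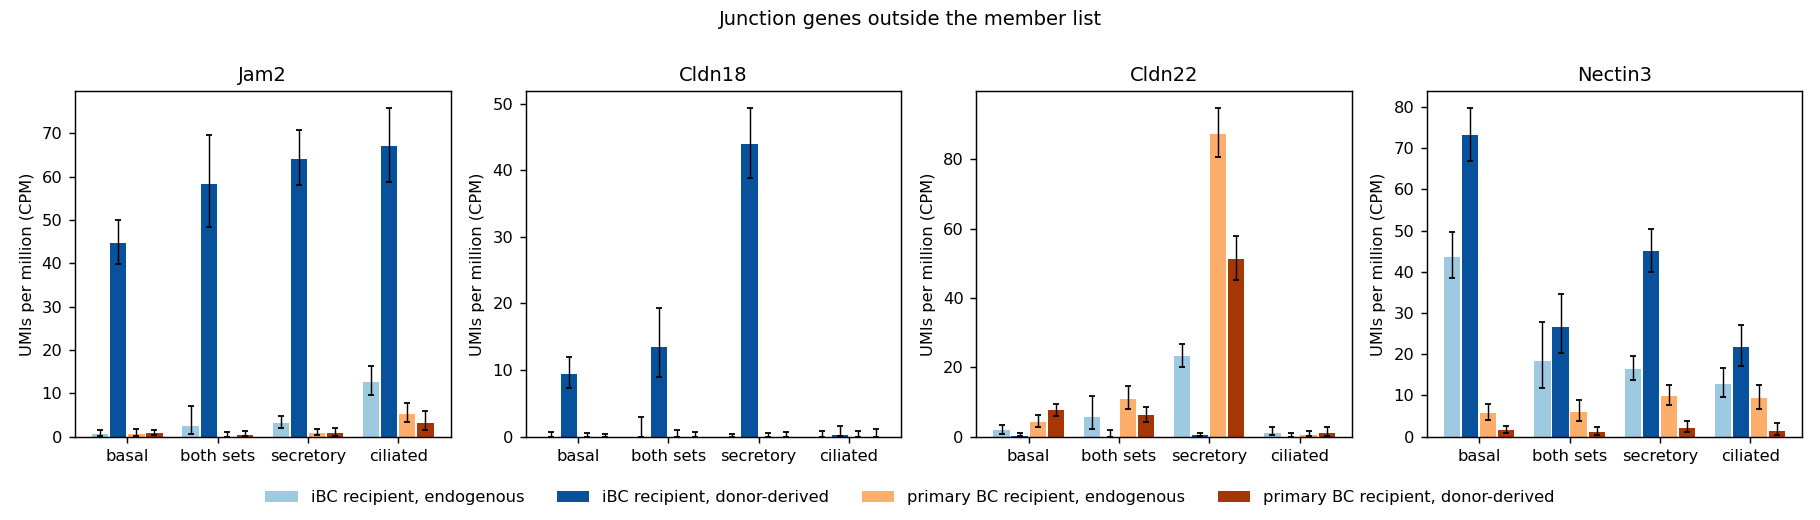
CPM (linear axis from 0) of Jam2, Cldn18, Cldn22 and Nectin3 in 4 marker-gated classes; bars are single libraries and error bars are exact Poisson 95% intervals. Jam2 stands at 44.7 to 67.0 CPM in the donor-derived iBC library and at most at 12.6 CPM elsewhere, and Cldn18 has UMIs in that library alone.

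Other calls in the iBC recipient ran in both directions. Magi3, a scaffold, was 2.78-fold and St14, a membrane protease, 2.20-fold higher in donor-derived basal-gated cells, and Nectin2 was 1.80-fold higher. Magi1 was 2.66-fold and Nectin2 2.38-fold higher in cells with both marker sets, whereas Amotl1 and Nectin1 were 2.27 and 2.25 times lower. Magi1 was 3.48-fold and Nectin3 2.74-fold higher in secretory-gated cells. Nectin3 and Prss8 were 1.70-fold and 1.60-fold higher in ciliated-gated cells.

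Between the endogenous libraries the listed genes called were 4 of 29 in basal-gated cells, 7 of 32 in cells with both marker sets, 3 of 29 in secretory-gated and 5 of 34 in ciliated-gated cells. These shares of 13.8%, 21.9%, 10.3% and 14.7% were near or below the 11.1%, 19.4%, 20.6% and 18.1% of all genes. In ciliated-gated cells all 5 were higher in the iBC recipient, among them Cldn23 (3.21-fold), Amotl2 (2.89-fold), Marveld2 (2.33-fold) and Cgn (1.60-fold). Of these, Cldn23 (26.2 against 8.18 CPM) and Marveld2 (30.7 against 13.2 CPM) reached 20 CPM in the iBC recipient alone, so their direction depends in part on that limit. Marveld2, or tricellulin, belongs to the same protein family as Ocln. Cldn22 was 3.77 times lower in secretory-gated cells of the iBC recipient (3.20 to 4.47).

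Across the 16 class-by-library sums, the genes whose log2 levels ran most nearly with each member, of 8827 compared, are given as a description; the points share libraries, depth and classes. Crb3, a polarity gene of the apical membrane, ran with Cldn7 (Pearson's r 0.981) and Marveld2 with Ocln (0.948, after Dnajb4 with 0.962). Cldn3 ran with Isg20 (0.965), Prr15l (0.964) and Cxcl17 (0.960), and Cldn10 with Armcx3 (0.917), Chad (0.914) and Acsm1 (0.906). Cldn8 was closest to Slc22a23 (0.926), Tjp1 to Carmil1 (0.951), F11r to Emc3 (0.98) and Cldn4 to Acadm (0.831). Among the members themselves Cldn3 and Cldn7 (0.88) and Cldn7 and Ocln (0.83) ran most closely together, and Cldn8 and Ocln ran opposite (-0.71).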

How the data were processed

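Cells sorted from 2 mouse tracheas were measured on the 10x Chromium system in 4 libraries, 1 per group. Each deposited matrix gives the UMI count of every gene in every barcode; Cell Ranger, STARsolo and Seurat with GRCm38 are named, per the submitters' processing notes, with no versions or roles. Whether counting used strand is not given in the sources used here. Gene positions came from GENCODE vM21 of that build.

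Barcodes with under 500 genes or over 20% mitochondrial UMIs were removed, as were doublets called with Scrublet in scanpy 1.11.5 (0.568% to 2.38% of a library). Gates were set with the data at hand, on marker UMIs per 10000: immune from 10, ciliated from 40, hillock from 10, basal from 30 with secretory under 400, both sets with secretory from 400, and secretory from 1000 with basal under 30. Cells up to 20% above the limit of 1 gate score per class numbered 2 to 41 in any compared class. Cells just below a limit, or near the secretory limit of 400, were not counted. UMIs were summed per class of at least 50 cells in both libraries, and log2 ratios used a pseudocount of 5 CPM. Clustering used Leiden (leidenalg 0.10.2, resolution 1.0) without the members, and TMM used edgeR 4.0.16. The calculation was tested on simulated data.

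All 9 members were named; listed genes were named when called in every class of a comparison, or among the 5 largest folds of a class. A listed gene that met this rule is not reported here. Members and lists were chosen with earlier results of these data known.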

Additional observations from a re-analysis of the deposited data

Results flagged for a closer look

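In 2 cases the ratios of donor-derived to endogenous cells lay on opposite sides of 1 in the 2 recipients. Their intervals were apart and 1 of the ratios was past 1.5-fold. In both cases the interval of the primary BC recipient included 1, so no direction was resolved there. The ratio of donor-derived to endogenous Cldn4 in ciliated-gated cells was 0.208 (0.155 to 0.276) after iBC transplantation, against 1.26 (0.968 to 1.64) in the other animal. The levels behind the first ratio were 15.9 and 76.5 CPM, and those behind the second 35.6 and 28.2 CPM. Tjp1 in secretory-gated cells had ratios of 1.66 (1.47 to 1.88) and 0.959 (0.808 to 1.14), and the first was 1.29 with TMM scaling. With 1 library a group the difference between recipients was not tested.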

How the results depend on the processing

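No paired analysis was possible because each recipient gave a single pair of libraries; a fit that takes the 2 recipients as replicate pairs was not run, since their donor cells differ in kind. Of 586 log2 ratios recomputed under 8 alternatives (secretory markers left out of the totals was chosen after seeing the data), 41 moved by more than their counting error and 0 called ones changed direction. The number of members called in a class changed by over 1.5 times in these cases. For donor-derived against endogenous cells of the iBC recipient it was 2 with TMM scaling in secretory-gated cells, and 2 with no filter on low values in ciliated-gated cells. In the primary BC recipient it was 2 (basal-gated) and 1 (ciliated-gated) with no filter, and 2 in secretory-gated cells with classes from Leiden clusters, where Cldn4 was called. Between the endogenous libraries, basal-gated cells gave 4 with cluster classes (Cldn3, Cldn7, Cldn8 and Cldn10 higher in the iBC recipient), 1 with no filter and 1 with the mean of per-cell CPM; secretory-gated cells gave 0 with that mean and 2 with secretory markers left out. The class of highest level, among basal-, secretory- and ciliated-gated cells, stayed the same for 5 of 9 members in the endogenous primary library with TMM scaling. Thinning moved 132 of 144 shares of cells with a UMI outside their counting interval. Cluster classes and doubled gate limits gave no value for cells with both marker sets, which have no cluster or fell under 50 cells. Cldn1 in the epithelium and Cldn10 in ciliated-gated cells rested on few UMIs, and both lay under 20 CPM in every library.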

Other observations

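The hillock-gated cells, named for Krt13 and its partners and too few to compare, held Cldn3 at 500, 564, 685 and 691 CPM in the endogenous and donor-derived cells of the iBC recipient and then those of the primary BC recipient; 85 of the 120 UMIs behind 564 came from 1 cell, without which it was 187 CPM. Cldn7 stood at 352, 526, 366 and 343 CPM in them, and Cldn10 had 0, 0, 2 and 3 UMIs. Ocln stood at 83.4, 146, 34.7 and 21.6 CPM, of which 5 of 9 and 18 of 31 UMIs in the iBC recipient came from 1 cell each (41.9 and 69.5 CPM without it).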
